A study of Mus musculus with 12 samples.

Results

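Enteroendocrine cells were followed through 10 genes of the count table, the secretory granule proteins *Chga* and *Chgb*, the hormone genes *Gcg*, *Pyy*, *Insl5*, *Sct*, *Cck* and *Nts*, the serotonin-synthesis enzyme gene *Tph1*, and the transcription factor gene *Neurod1*. They were taken by symbol, all 10 were among the 18514 genes of the table, and all 10 passed the filter on low counts that left 15484 genes. RNA came from the colorectal tissue of 12 male C57BL/6 mice bought at 4 weeks of age, with 1 library per mouse and 3 mice in each of 4 groups. Model mice received 1 dose of azoxymethane (AOM), a carcinogen, of 10 mg/kg. Their drinking water then held 2% dextran sulfate sodium (DSS), which injures the colonic epithelium and causes colitis, for 7 days in each of 3 cycles, with 2 weeks of plain water after each. Model_Swim mice received the same and swam for up to 90 min per day, from 2 months before AOM and, by the study's methods, on to the end of the experiment (the labels call it a pretreatment), Ctrl_Swim mice swam and received neither agent, and Ctrl mice neither swam nor received an agent. The untrained mice were placed in shallow water. AOM/DSS is used as a model of colorectal tumours that arise in inflamed colon.

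The secretin gene *Sct* was lower in all 3 Model mice than in every other mouse, and far lower in Model 1 and Model 2 than in Model 3. It was the 1 gene of the 10 whose difference from Ctrl passed the test (32.7% of all genes tested did). The call was lost without Ctrl 1, Ctrl 2 or Model 2, in a fit of only the groups compared and with acinar RNA as a covariate. *Chga*, *Chgb* and *Nts* were low in Model 1 and Model 2 and at the level of the other groups in Model 3, while *Pyy* and *Insl5* were lowest in Model 3 and highest in Model 2. *Gcg* lay below its controls without overlap in both groups that received AOM/DSS, a difference that passed the test in the average of the 2 comparisons, though not without Ctrl 2 or without Model_Swim 1, and in neither comparison alone. In the fit of the 4 groups, neither comparison of swimming with no swimming gave a call among the 10. Few genes were called at all, 0.969% of all genes tested in untreated mice and 0.071% after AOM/DSS. Without Model 3, 6 of the 10 were called between Model_Swim and Model, where 5.62% of all genes tested were called. With distal Hox RNA as a covariate, added after the low *Hoxb13* of Model 3 was seen, 4 were called (2.04% of all genes tested). Model 3 lay below every other library in that covariate, so that this fit is not independent of the one without Model 3.

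Enteroendocrine cells are rare epithelial cells scattered along the crypts, which sense the contents of the gut lumen and release hormones into the tissue and blood. They arise from crypt stem cells under NEUROG3 and then NEUROD1, and their hormones depend on their position, since cells of the distal colon make INSL5 and peptide YY, and neurotensin and secretin are best known from the small intestine. Enterochromaffin cells are the serotonin-producing kind and are marked by *Tph1* and *Chga*. In bulk tissue, fewer cells of a type and less RNA per cell cannot be told apart.

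The bases upstream of the start sites of 5 of the genes are shown because *Chga* and *Chgb* followed each other across the mice, *Sct* was the gene that passed the test between Model and Ctrl, and *Nts* and *Insl5* lay at opposite ends in the same Model mice. They are RefSeq sequence of GRCm38.p6, 5′ to 3′ towards the gene, ending just before its first base, and all 10 genes were found in that table. The stretch for *Sct* stops 41 bases short of its start site in that table, where the annotated gene begins, and a TATAAA of *Sct* lies in those 41 bases. Capitals mark exact matches, on either strand, of CAGATG and CAGCTG (E-boxes, the kind of site that NEUROD1 and related factors bind), TGACGTCA (the cyclic AMP response element), GGGCGG (the GC box) and TATAAA (the TATA box). The windows are chr12:102554691-102554940 (plus strand) for *Chga*, chr2:132781392-132781641 (plus strand) for *Chgb*, chr7:141279175-141279383 (minus strand) for *Sct*, chr10:102490419-102490668 (minus strand) for *Nts* and chr4:103027272-103027521 (minus strand) for *Insl5*.
Chga: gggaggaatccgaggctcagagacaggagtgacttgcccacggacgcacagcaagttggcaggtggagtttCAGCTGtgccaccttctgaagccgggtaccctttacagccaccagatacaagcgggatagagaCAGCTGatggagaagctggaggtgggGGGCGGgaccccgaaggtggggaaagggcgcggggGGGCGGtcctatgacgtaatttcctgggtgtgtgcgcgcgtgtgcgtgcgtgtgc
Chgb: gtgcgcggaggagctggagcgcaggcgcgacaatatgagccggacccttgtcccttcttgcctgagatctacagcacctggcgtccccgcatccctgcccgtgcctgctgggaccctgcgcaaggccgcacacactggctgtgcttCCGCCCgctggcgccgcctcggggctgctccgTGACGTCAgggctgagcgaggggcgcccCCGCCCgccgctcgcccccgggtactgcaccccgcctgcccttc
Sct: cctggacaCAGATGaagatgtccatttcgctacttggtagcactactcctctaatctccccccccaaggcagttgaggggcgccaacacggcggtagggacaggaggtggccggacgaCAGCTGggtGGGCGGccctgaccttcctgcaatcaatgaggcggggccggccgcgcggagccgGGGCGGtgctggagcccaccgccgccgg
Nts: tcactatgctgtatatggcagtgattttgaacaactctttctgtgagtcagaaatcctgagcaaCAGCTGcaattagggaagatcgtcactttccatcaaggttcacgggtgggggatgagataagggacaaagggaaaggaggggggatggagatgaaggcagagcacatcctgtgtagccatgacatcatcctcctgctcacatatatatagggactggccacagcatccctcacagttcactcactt
Insl5: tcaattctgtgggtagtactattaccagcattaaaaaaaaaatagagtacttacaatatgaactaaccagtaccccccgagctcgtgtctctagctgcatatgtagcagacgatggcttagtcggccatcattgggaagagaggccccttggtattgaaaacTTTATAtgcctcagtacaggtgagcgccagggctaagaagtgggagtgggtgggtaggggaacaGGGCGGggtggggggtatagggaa

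TGACGTCA was found in 1 of the 10 windows of 250 bases, that of *Chgb*, and in 1.55% of 32851 RefSeq windows of that length. CAGATG was in 3 of the 10 (*Gcg*, *Sct* and *Cck*) and in 14.4% of all windows, and CAGCTG was in 3 of the 10 (*Chga*, *Sct* and *Nts*) and in 13%. GGGCGG was in 5 of the 10 and in 32.7% of all windows, and TATAAA was in 3 of the 10 and in 12.4%. The HOX13-type letters CCAATAAA and CTCGTAAA were in none of the 10, and in 1.02% and 0.11% of all windows. Of the 10 genes, only *Sct* held both E-box forms. *Chga* and *Chgb* had 2 GC boxes each, and none of the other motifs was in both of their windows as exact letters. Near matches, such as TGACGTAA in the window of *Chga*, which differs from TGACGTCA in 1 base, were not counted.

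The 12 libraries held 17256953 to 19451055 counts, and values are given as CPM, counts divided by the library size after TMM scaling, unless FPKM, which also divides by transcript length, is named. A count of 3 corresponded to 0.153 to 0.172 CPM. Model 1, 2 and 3 stood apart from one another. The 12 pancreatic acinar genes, led by *Ctrb1*, *Cela2a* and *Pnlip*, summed to 46138 CPM in the first of them and 22326 CPM in the third, against 93.0 to 208 CPM over the other 10 libraries. Insulin RNA was present in the same mice, with *Ins2* at 7.40 CPM (Model 1) and 3.39 CPM (Model 3), 0.0545 CPM in Model 2 and 0 in the other 9 libraries, and *Ins1* at 4.24 and 0.861 CPM in these 2 mice and 0 in the other 10. Pancreatic islets make *Gcg*, *Pyy*, *Chga*, *Chgb* and *Neurod1* as well, and their part in the values of these 2 mice was not tested. The mean log2 CPM of the acinar genes, used below as a covariate, was 2.19 to 2.38 in Ctrl and -0.77 to 1.83 in Ctrl_Swim. It was 2.31 to 11.4 in Model and -0.85 to -0.24 in Model_Swim. Model_Swim thus lay below Ctrl and Model without overlap, and this covariate was partly aligned with group. *Hoxb13*, a gene of the most distal colon and rectum, was at 170, 168 and 7.58 CPM in Model 1, 2 and 3, and *Hoxd13* was at 48.6, 48.2 and 0.287 CPM, while the other 9 libraries held 53.3 to 125 CPM of *Hoxb13*. Epithelial genes were lower in Model than in Ctrl, with 9 of 11 called. *Krt8*, the most abundant, fell by 0.67 on the log2 scale, followed in abundance by *Lgals4* and *Krt19*. All 11 leukocyte genes, led by *Csf1r*, *Ptprc* and *Cd79a*, were called higher. Between these 2 groups 32.7% of all genes tested were called.

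The 10 genes covered a wide range of abundance. Per length of transcript, *Chgb* led in Ctrl at 77.5 ± 16.5 FPKM (SD, n = 3 for every group mean), followed by *Pyy* at 74.1 ± 6.6 and *Gcg* at 61.1 ± 11.9, and *Chga* came next at 53.7 ± 10.8. The libraries of each of these 4 overlapped with those of the next. *Sct* at 34.3 ± 4.1 FPKM and *Insl5* at 33.0 ± 8.2 overlapped with each other and lay below *Chga* without overlap. *Nts* at 12.2 ± 1.6, *Tph1* at 5.0 ± 0.96, *Cck* at 2.41 ± 0.49 and *Neurod1* at 1.01 ± 0.11 FPKM each lay apart from the next. In Ctrl_Swim the same 4 genes led in the same order, and in Model_Swim the order was *Chgb*, *Pyy*, *Chga* and *Gcg*. By the means of Model, *Pyy* (91.6 ± 54.1 FPKM) came ahead of *Chgb* (56.6 ± 27.0) and *Gcg*, and *Insl5* (38.9 ± 32.3) ahead of *Chga* (37.2 ± 18.4). Model 3 had the reverse, with *Pyy* at 44.7 and *Chgb* at 87.4 FPKM, and *Insl5* at 10.5 and *Chga* at 58.2 FPKM. *Sct* and *Nts* had the widest spread over the 12 libraries, 15.1-fold and 13.4-fold between the highest and the lowest, followed by *Insl5* at 6.90-fold, and *Tph1* had the narrowest at 2.07-fold.

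**Figure D1:**
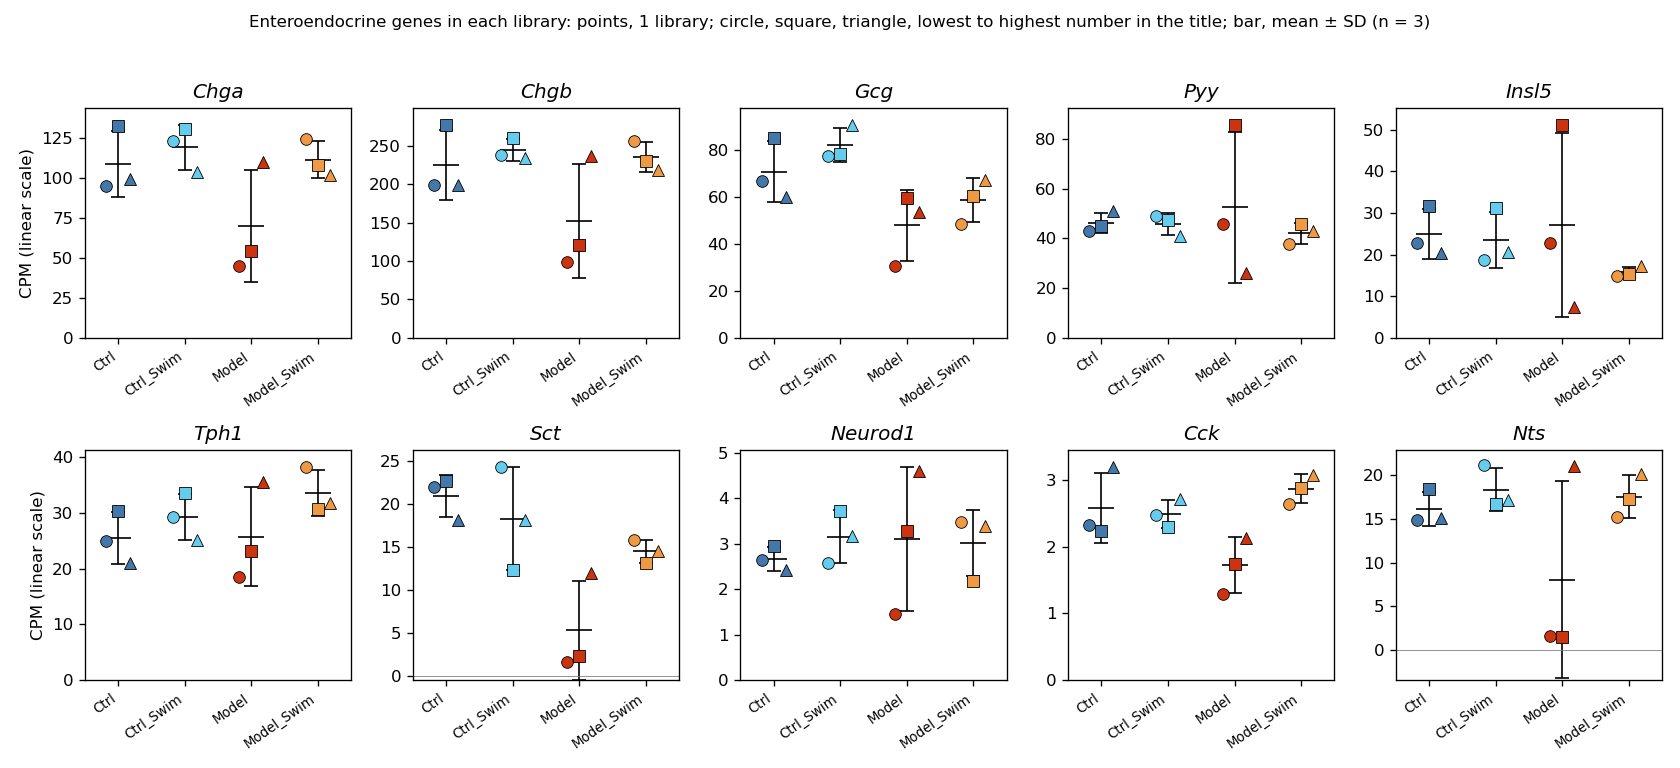
CPM of each of the 10 genes (y axis, linear) in the 12 libraries by group (x axis), 1 point per mouse, with the mean and SD of each group of 3. Model 1 (circle) and Model 2 (square) lie far below Model 3 (triangle) for *Chga*, *Chgb*, *Sct* and *Nts*, and above it for *Pyy* and *Insl5*.

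*Chga* and *Chgb* encode chromogranins, the acidic proteins that fill the dense-core granules of endocrine cells. *Chga* measured 94.7, 132 and 99.2 CPM in Ctrl 1, 2 and 3, 123, 131 and 104 CPM in Ctrl_Swim 2, 3 and 4, 44.9, 54.4 and 110 CPM in Model 1, 2 and 3, and 124, 108 and 102 CPM in Model_Swim 1, 2 and 3. Model 1 and Model 2 lay below every other library and Model 3 lay within the range of Ctrl. *Chgb* measured 199, 277 and 199 CPM in Ctrl, 237, 260 and 234 CPM in Ctrl_Swim, 99.3, 120 and 237 CPM in Model, and 257, 230 and 219 CPM in Model_Swim, in the same order of mice. The same 2 Model mice were low again. The counts of *Chgb* per count of *Chga* lay between 1.93 and 2.26 in all 12 libraries, Model 1 and Model 2 included. Over the 12 libraries their log2 CPM correlated at Pearson's r = 0.99 (permutation p = 1e-05, the smallest that 100000 resamples can give, adjusted p = 0.00045 over the 45 pairs of the 10 genes) and Spearman's rho = 0.99 (permutation p = 1e-05, adjusted p = 0.00045), and without Model 1 and Model 2, the farthest from the median, at r = 0.93. Of 14917 genes searched, *Chgb* was the gene nearest to *Chga* in log2 CPM over the 12 libraries, and *Chga* the nearest to *Chgb*.

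Between Model and Ctrl, *Chga* differed by -0.64 on the log2 scale (SE 0.27, adjusted p = 0.093, edgeR's quasi-likelihood test over all genes) and *Chgb* by -0.56 (SE 0.26, adjusted p = 0.117), so that neither passed. Without Model 3, the log2 difference of *Chga* was -1.12 (adjusted p = 0.000617) and that of *Chgb* was -1.02 (adjusted p = 0.000666). Model_Swim stood above Model by 0.67 for *Chga* (SE 0.27, adjusted p = 0.322) and by 0.63 for *Chgb* (SE 0.26, adjusted p = 0.334). Without Model 3 these 2 differences were 1.17 (adjusted p = 0.00204) and 1.11 (adjusted p = 0.00183). Whether the chromogranins passed therefore depended on 1 mouse in both comparisons.

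*Tph1* encodes tryptophan hydroxylase, the enzyme that limits serotonin synthesis in enterochromaffin cells. It measured 24.9, 30.3 and 21.1 CPM in Ctrl, 29.2, 33.5 and 25.1 CPM in Ctrl_Swim, 18.4, 23.2 and 35.6 CPM in Model, and 38.2, 30.7 and 31.8 CPM in Model_Swim. Model 3 lay above every Ctrl library and Model 1 below, and the groups overlapped. The log2 difference between Model and Ctrl was 0.02 (SE 0.22, 95% interval -0.47 to 0.50, adjusted p = 0.959), and that between Model_Swim and Model was 0.38 (SE 0.22, adjusted p = 0.478), or 0.70 without Model 3 (adjusted p = 0.0427). The counts of *Tph1* per count of *Chga* were 0.212 to 0.263 in Ctrl, 0.238 to 0.256 in Ctrl_Swim, 0.323 to 0.427 in Model and 0.284 to 0.313 in Model_Swim. Every mouse that received AOM/DSS lay above every mouse that did not in this ratio, which is given as a description. Mast cells express *Tph1* too, and of 10 mast cell genes, led by *Kit*, *Mcpt1* and *Mcpt2*, 4 were called higher in Model than in Ctrl (*Cma1*, *Cpa3*, *Hdc* and *Tpsb2*), where 32.7% of all genes tested were called. *Cpa3* lost its call in 7 of the 12 fits without 1 library (adjusted p of up to 0.112), *Hdc* in 4 (0.0947), *Cma1* in 1 (0.0515 without Ctrl 2) and *Tpsb2* in 0. *Kit*, the most abundant of the list, measured 63.7, 79.8 and 123 CPM in the Model mice and 105 to 117 CPM in Ctrl, and was not called. The list summed to 124 to 180 CPM in Model and 125 to 177 CPM in Ctrl, and its part in *Tph1* was not tested. *Neurod1*, the factor that drives maturation of these cells, was low throughout, at 27 to 80 counts, and measured 2.65, 2.94 and 2.42 CPM in Ctrl, 2.58, 3.72 and 3.17 CPM in Ctrl_Swim, 1.45, 3.27 and 4.59 CPM in Model, and 3.47, 2.18 and 3.39 CPM in Model_Swim. Its log2 difference between Model and Ctrl was 0.21 (SE 0.36, adjusted p = 0.676), and the Model mice covered a range wider than all other libraries.

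*Sct* encodes secretin, which stimulates bicarbonate secretion by the pancreas. It measured 21.9, 22.6 and 18.1 CPM in Ctrl, 24.3, 12.3 and 18.1 CPM in Ctrl_Swim, 1.61, 2.34 and 11.9 CPM in Model (30, 43 and 208 counts), and 15.8, 13.1 and 14.5 CPM in Model_Swim. The 3 Model mice lay below all 9 others, and Model 1 and Model 2 far below Model 3. *Sct* fell by 1.99 on the log2 scale in Model against Ctrl (SE 0.57, 95% interval -3.23 to -0.74, adjusted p = 0.0219) and was the 1 gene of the 10 that was called, where 32.7% of all genes tested were called and 16.2% were called lower. It also passed the fold-change limit of the study, as did 1.22% of all genes tested in that direction. The adjusted p was 0.0547 without Ctrl 1, 0.0604 without Ctrl 2 and 0.0674 without Model 2, and 0.0755 in a fit of only the 2 groups. With the mean of the acinar genes as a covariate it was 0.0755 as well (log2 difference -2.67). Model_Swim stood above Model by 1.46 (SE 0.56, adjusted p = 0.304) without overlap, and without Model 3 by 2.88 (adjusted p = 0.000271).

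*Nts* encodes neurotensin, a peptide that slows gut motility and promotes fat uptake. It measured 14.8, 18.4 and 15.1 CPM in Ctrl, 21.1, 16.7 and 17.1 CPM in Ctrl_Swim, and 15.2, 17.2 and 20.1 CPM in Model_Swim. In Model it measured 1.61, 1.58 and 21.0 CPM, or 30, 29 and 365 counts. Model 1 and Model 2 lay far below every other library, while Model 3 held the second highest of all 12. The log2 difference between Model and Ctrl was -1.01 (SE 0.73, 95% interval -2.62 to 0.61, adjusted p = 0.310), and without Model 3 it was -3.32 (adjusted p = 4.57e-06). Between Model_Swim and Model it was 1.13 (SE 0.73, adjusted p = 0.533), and 3.46 without Model 3 (adjusted p = 4.39e-06). The genes nearest to *Nts* over the 12 libraries were *Hoxb8* (r = 0.99), *Cyp2c65* (r = 0.99) and *Slc51a* (r = 0.98), and those nearest to *Sct* were *B4galnt2*, *Higd1a* and *Ugt2b5* (r = 0.99 each).

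*Gcg*, *Pyy* and *Insl5* are genes of L cells, and encode proglucagon (the source of GLP-1 and GLP-2), peptide YY and insulin-like peptide 5. *Gcg* measured 66.7, 85.2 and 60.1 CPM in Ctrl, 77.5, 78.3 and 90.6 CPM in Ctrl_Swim, 30.7, 59.5 and 53.5 CPM in Model, and 48.6, 60.3 and 67.0 CPM in Model_Swim. Model lay below Ctrl and Model_Swim below Ctrl_Swim, both without overlap. The log2 difference was -0.56 between Model and Ctrl (SE 0.22, adjusted p = 0.0693) and -0.49 between Model_Swim and Ctrl_Swim (SE 0.22, adjusted p = 0.216), and neither passed. Without Model 2 the first was -0.73 (adjusted p = 0.0424). Averaged over untrained and trained mice, *Gcg* fell by 0.52 on the log2 scale with AOM/DSS (SE 0.15, 95% interval -0.86 to -0.18, adjusted p = 0.0237). The adjusted p of that average was 0.0638 without Ctrl 2 and 0.0589 without Model_Swim 1. With the mean of the acinar genes as a covariate the average was -0.37 (adjusted p = 0.106), and with limma on log2(FPKM + 1) without a filter it was -0.49 (adjusted p = 0.0581). The gene nearest to *Gcg* over the 12 libraries was *Scg2*, a granin (r = 0.94), followed by *Chrna3* (r = 0.93) and *Kcnq3* (r = 0.92).

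*Pyy* measured 43.1, 44.8 and 50.8 CPM in Ctrl, 49.0, 47.3 and 40.9 CPM in Ctrl_Swim, 45.9, 85.6 and 26.1 CPM in Model, and 37.6, 45.9 and 42.9 CPM in Model_Swim. Model 2 was the highest and Model 3 the lowest of the 12, and the other 10 libraries lay within 37.6 to 50.8 CPM. *Insl5* measured 22.9, 31.7 and 20.4 CPM in Ctrl, 18.8, 31.2 and 20.5 CPM in Ctrl_Swim, 22.8, 51.1 and 7.40 CPM in Model, and 14.9, 15.2 and 17.2 CPM in Model_Swim. Model 2 and Model 3 were again the extremes, and the 3 Model_Swim mice lay below the 3 Ctrl_Swim mice. Between Model and Ctrl the log2 difference was 0.18 for *Pyy* (SE 0.31, adjusted p = 0.672) and 0.12 for *Insl5* (SE 0.49, adjusted p = 0.871). Between Model_Swim and Model it was -0.32 for *Pyy* (SE 0.31, adjusted p = 0.695) and -0.78 for *Insl5* (SE 0.50, adjusted p = 0.523), and for *Insl5* it was -1.22 without Model 3 (adjusted p = 0.0464). The counts of *Insl5* per count of *Nts* were 14.2 in Model 1, 32.3 in Model 2 and 0.353 in Model 3, against 0.855 to 1.88 in the other 9 libraries. *Pyy* per count of *Gcg* was 1.49 and 1.44 in Model 1 and Model 2, 0.487 in Model 3 and 0.451 to 0.846 elsewhere.

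*Cck*, the gene of cholecystokinin, which contracts the gallbladder and releases pancreatic enzymes, was among the lowest, at 24 to 58 counts. It measured 2.32, 2.24 and 3.19 CPM in Ctrl, 2.47, 2.29 and 2.71 CPM in Ctrl_Swim, 1.29, 1.74 and 2.12 CPM in Model, and 2.64, 2.88 and 3.07 CPM in Model_Swim. All 3 Model mice lay below the other 9. The log2 difference was -0.59 between Model and Ctrl (SE 0.25, adjusted p = 0.0892) and 0.74 between Model_Swim and Model (SE 0.25, adjusted p = 0.259, the lowest of the 10 genes in that comparison).

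The 10 genes were correlated with the mean log2 CPM of 6 Hox genes of the distal colon, led by *Hoxb13*, *Hoxd13* and *Hoxa13*, which was 1.02 in Model 3, 4.53 in Model 1, 4.07 in Model 2 and 2.88 to 3.82 in the other 9 libraries. *Pyy* gave r = 0.75 (permutation p = 0.0209, adjusted p = 0.0697 over 10 genes, and rho = 0.76, permutation p = 0.0058, adjusted p = 0.058), with r = 0.70 without Model 1 and Model 3 and r = 0.65 over the 9 libraries outside the Model group. *Insl5* gave r = 0.72 (permutation p = 0.0169, adjusted p = 0.0697, and rho = 0.52, permutation p = 0.0832, adjusted p = 0.166), which was 0.48 without Model 1 and Model 3 and 0.15 outside the Model group, so that the relation rested on the Model mice. *Neurod1* gave r = -0.73 (permutation p = 0.0158, adjusted p = 0.0697, and rho = -0.59, permutation p = 0.0474, adjusted p = 0.119), and r = -0.34 without Model 1 and Model 3. *Tph1* gave r = -0.61 (permutation p = 0.0298, adjusted p = 0.0744, and rho = -0.59, permutation p = 0.0446, adjusted p = 0.119), and r = -0.41 without these 2 mice. *Nts* gave r = -0.55 (permutation p = 0.09, adjusted p = 0.18, and rho = -0.67, permutation p = 0.0198, adjusted p = 0.0989), and r = -0.57 without these 2 mice. Without Model 3 alone, r was -0.71 for *Chga*, -0.76 for *Chgb*, -0.75 for *Sct*, -0.72 for *Cck* and -0.76 for *Nts*. Over the 9 libraries outside the Model group it was 0.02, -0.21, -0.13, -0.12 and -0.38 in the same order. For these genes the values without Model 3 thus rested largely on Model 1 and Model 2. In the other genes r without Model 3 fell to 0.50 for *Pyy* and 0.37 for *Insl5*. It was -0.65 for *Gcg*, -0.64 for *Tph1* and -0.67 for *Neurod1*. No p was computed for the values without Model 3. With all libraries, *Chga*, *Chgb*, *Gcg*, *Sct* and *Cck* had an adjusted p of 0.186 or more for r and 0.201 or more for rho. No gene of the 10 passed the adjusted threshold. With this mean as a covariate, added after the low *Hoxb13* of Model 3 was seen, *Chga*, *Chgb*, *Gcg*, *Nts* and *Sct* were called lower in Model than in Ctrl (37.3% of all genes tested were called), and *Chga*, *Chgb*, *Nts* and *Sct* higher in Model_Swim than in Model (2.04%). Since Model 3 lay apart in this mean, the covariate fit is not independent of the fit without Model 3.

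**Figure D2:**
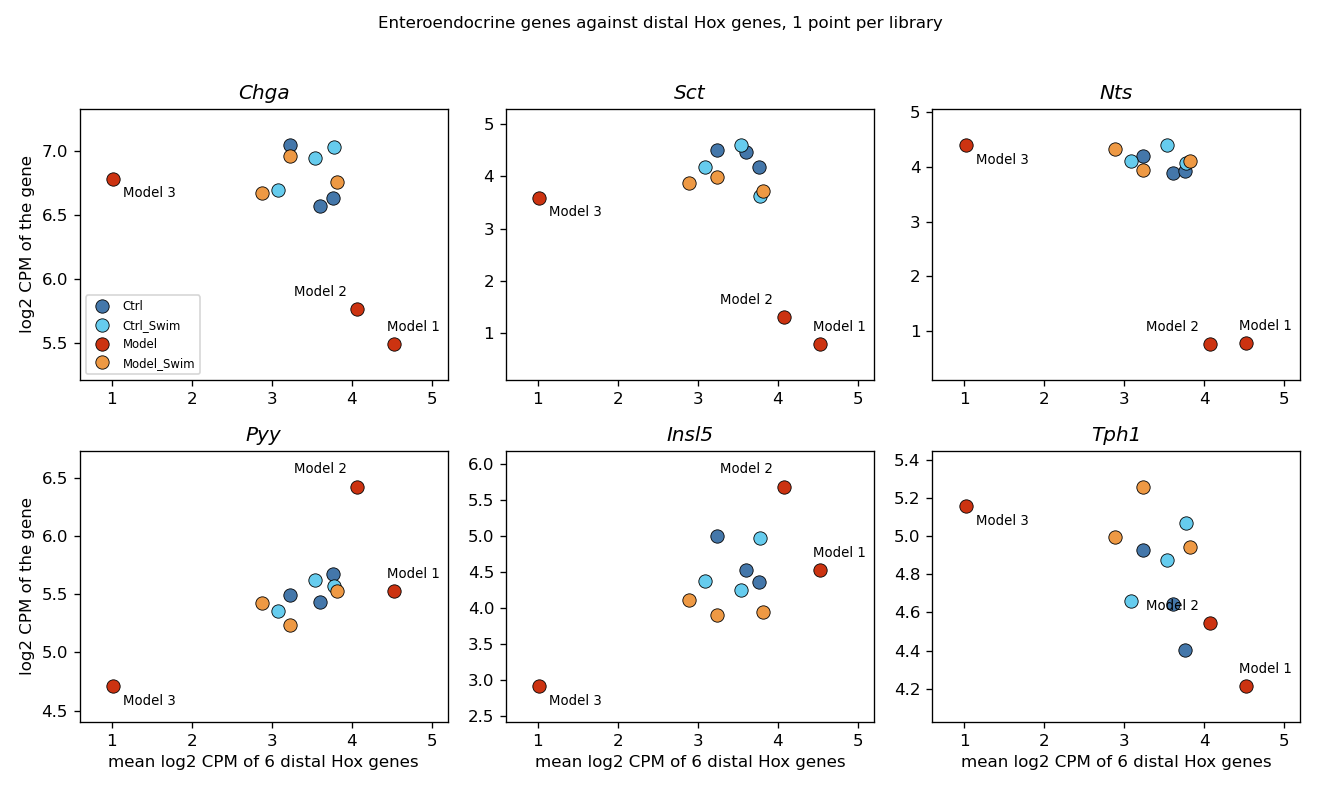
Log2 CPM of 6 of the 10 genes (y axis) against the mean log2 CPM of 6 distal Hox genes (x axis), 1 point per library, coloured by group, with the 3 Model mice named. Model 3 lies alone at 1.02 on the x axis, with *Nts* and *Chga* at the level of the control mice and *Pyy* and *Insl5* below all others.

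Swimming was compared with no swimming in both settings. In untreated mice, 0 of the 10 genes were called (0.969% of all genes tested) and 0 of the 10 had an unadjusted p under 0.05 (17.6% of all genes tested). DESeq2 called 0 of the 10 as well, and 658 over all genes. The groups overlapped for all 10, where 27.4% of all genes tested did not overlap. The log2 differences of Ctrl_Swim from Ctrl lay between -0.20 (*Sct*, 95% interval -1.37 to 0.98) and 0.24 (*Neurod1*, 95% interval -0.56 to 1.04). After AOM/DSS, 7 of the 10 genes were higher in Model_Swim than in Model. Of the 10, 0 were called by edgeR (0.071% of all genes tested) or by DESeq2 (361 over all genes). In edgeR, 4 had an unadjusted p under 0.05, namely *Cck*, *Sct*, *Chga* and *Chgb* (13.6% of all genes tested). The 3 Model_Swim mice did not overlap the 3 Model mice for *Cck* and *Sct*, 2 of 10 genes, where 16.9% of all genes tested did not overlap. The median log2 difference of the 10 was 0.51, against -0.01 over all genes tested. Without Model 3, 6 of the 10 were called, *Chga*, *Chgb*, *Nts*, *Sct* and *Tph1* higher and *Insl5* lower, where 5.62% of all genes tested were called. The interaction of swimming with AOM/DSS was called for 0 of the 10 (0% of all genes tested) and had an unadjusted p under 0.05 for 1, *Cck*, at 0.79 (SE 0.35, adjusted p = 0.247, 19% of all genes tested). DESeq2 called the interaction of 0 of the 10, and of 777 over all genes. Without Model 3 edgeR called it for 4, *Chga*, *Chgb*, *Nts* and *Sct* (4.57% of all genes tested).

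AOM/DSS was compared with no treatment in the same way. In untrained mice, 6 of the 10 genes were lower in Model than in Ctrl, 4 of the 10 had an unadjusted p under 0.05 (45.2% of all genes tested), the median difference of the 10 was -0.56 (0.01 over all genes tested), and 3 of the 10, *Sct*, *Gcg* and *Cck*, did not overlap (44.2% of all genes tested). Without Model 3, 4 of the 10 were called, *Chga*, *Chgb*, *Nts* and *Sct*, all lower (35.8% of all genes tested). In trained mice, Model_Swim differed from Ctrl_Swim by a median of -0.08. Of the 10, 0 were called by edgeR (5.18% of all genes tested) or by DESeq2 (1562 over all genes). In edgeR 1, *Gcg*, had an unadjusted p under 0.05 (22.4%). Groups did not overlap for *Gcg* and *Insl5* (32.4% of all genes tested). Averaged over both, *Gcg* and *Sct* were called, 2 of 10, both lower, where 33.4% of all genes tested were called and 16.5% were called lower. *Sct* fell by 1.16 on that average (SE 0.39, adjusted p = 0.0406), and lost its call when any of 9 of the 12 libraries was left out (adjusted p of up to 0.0937), all but Ctrl_Swim 3, Model 1 and Model 3. The comparisons share groups, so that their calls are not independent of one another.

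**Figure D3:**
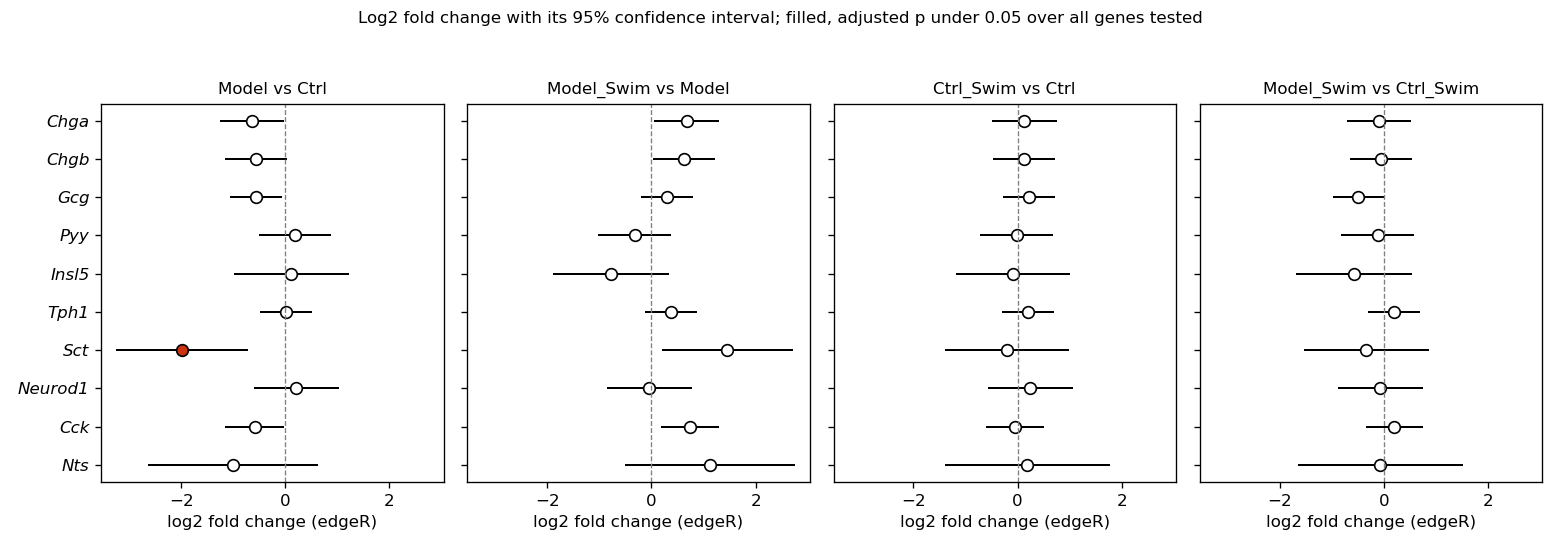
Log2 fold change (x axis) with its 95% interval for each of the 10 genes (rows) in 4 comparisons (panels), filled where the adjusted p over all genes tested was under 0.05. *Sct* between Model and Ctrl is the 1 filled point, and the intervals of *Nts*, *Sct* and *Insl5* are the widest.

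A wider set of 65 enteroendocrine genes in 5 lists was measured, of which 57 passed the filter. In Model against Ctrl 14 of the 57 were called, 3 higher and 11 lower, or 24.6% of them where 32.7% of all genes tested were called. Their median log2 difference was -0.28 (0.01 over all genes tested). Averaged over untrained and trained mice, 18 of the 57 were called with AOM/DSS, 4 higher and 14 lower (31.6%, against 33.4% of all genes tested). Between Model_Swim and Model, 0 of the 57 were called by edgeR (0.071% of all genes tested) and 12 had an unadjusted p under 0.05 (13.6% of all genes tested did). DESeq2 called 2, *Cckar* and *Maoa* (361 over all genes), and without Model 3 edgeR called 8 (5.62% of all genes tested). Between Ctrl_Swim and Ctrl, edgeR called 0 (0.969% of all genes tested) and 7 had an unadjusted p under 0.05 (17.6% of all genes tested did). DESeq2 called 1, *Scg5* (658 over all genes). Between Model_Swim and Ctrl_Swim 3 were called, *Ffar4*, *Htr4* and *Scg2* (5.3%, against 5.18% of all genes tested). The interaction was called for 0 by edgeR (0% of all genes tested) and 7 had an unadjusted p under 0.05 (19% of all genes tested did). DESeq2 called 3, *Cckar*, *Maoa* and *Slc5a1* (777 over all genes).

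Genes of prohormone processing and granules are the machinery that cuts, packs and stores peptide hormones, and 7 of 18 were called between Model and Ctrl, 6 of them lower, where 32.7% of all genes tested were called and 16.2% were called lower. Without Ctrl 2, 2 of the 7 kept their calls, *Pcsk1* and *Scg2*, and *Pcsk2* and *Slc18a2* each lost theirs in 10 of the 12 fits without 1 library (adjusted p of up to 0.130 and 0.119) and *Vgf* in 5 (0.128). *Pcsk1*, the convertase that cuts proglucagon to GLP-1, measured 35.8 to 45.1 CPM in Ctrl and 10.2, 15.1 and 25.7 CPM in Model 1, 2 and 3, without overlap, and fell by 1.22 on the log2 scale (SE 0.25, adjusted p = 0.00531). Model_Swim was at 19.8 to 25.4 CPM and Ctrl_Swim at 32.6 to 33.4 CPM. *Scg2*, a granin, measured 29.9 to 38.3 CPM in Ctrl and 12.9, 22.7 and 22.3 CPM in Model, without overlap, and fell by 0.82 (SE 0.18, adjusted p = 0.00653). *Scg3*, which helps to sort granins into granules, measured 12.3 to 14 CPM in Ctrl and 4.02, 6.97 and 10.6 CPM in Model, and fell by 0.88 (SE 0.25, adjusted p = 0.0225), with an adjusted p of up to 0.0694 without Ctrl 2, Ctrl 3 or Model 2. *Pcsk1n*, an inhibitor of *Pcsk1*'s product, differed by -0.58 (SE 0.21, adjusted p = 0.0514), and fell by 0.56 in the average over untrained and trained mice (adjusted p = 0.0131). *Pam*, which amidates peptides and was the most abundant of the list, went the other way, from 171 to 179 CPM in Ctrl to 255, 243 and 191 CPM in Model (log2 difference 0.39, SE 0.11, adjusted p = 0.0202), with an adjusted p of up to 0.0598 without Ctrl 1, Ctrl 2, Model 1 or Model 2. In the average over trained and untrained mice, 10 of the 18 were called, 9 of them lower, where 33.4% of all genes tested were called and 16.5% were called lower. In that average *Rab3c* lost its call in 7 of the 12 fits without 1 library (adjusted p of up to 0.0841), *Syp* in 6 (0.0778), *Pcsk2* in 2 (0.0525) and *Pam* in 1 (0.0507).

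Enteric neurons also make granins and convertases. Of 12 genes of enteric neurons, led by *Vip*, *Nos1* and *Ret*, 0 were called between Model and Ctrl by edgeR (32.7% of all genes tested). An unadjusted p under 0.05 was found for 2, *Snap25* and *Tubb3* (45.2% of all genes tested). The median log2 difference of the 12 was -0.43, with all 12 values below 0. In the average over both settings 5 were called lower (*Snap25*, *Stmn2*, *Tubb3*, *Uchl1* and *Vip*), where 16.5% of all genes tested were called lower. *Tubb3* lost its call in 9 of the 12 fits without 1 library (adjusted p of up to 0.0828), *Stmn2* in 8 (0.0734), *Uchl1* in 7 (0.0919), *Vip* in 1 (0.0504) and *Snap25* in 0. Their sum was 97.7 to 196 CPM in Model and 179 to 213 CPM in Ctrl, with Model 1 the lowest, and their part in the granule genes was not tested.

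Islet genes were read singly, since islets make several of the same peptides. *Ppy*, the gene of pancreatic polypeptide, which L cells of the colon also make, measured 8.31, 9.64 and 2.53 CPM in Model 1, 2 and 3 and 1.60 to 2.91 CPM in Ctrl, and was called higher in Model (log2 difference 1.54, SE 0.45, adjusted p = 0.0236), with an adjusted p of up to 0.0839 without Ctrl 1, Ctrl 2, Model 1 or Model 2. *Pdx1*, a factor of pancreas and gut, measured 0.221 to 0.491 CPM in Ctrl and 0.861 to 1.53 CPM in Model, and was called higher (log2 difference 1.94, SE 0.40, adjusted p = 0.00528). The part of islets in both was not tested. *Iapp*, a peptide of beta cells, measured 1.5, 0.0545 and 1.32 CPM in Model 1, 2 and 3 and 0.497 to 0.763 CPM in Ctrl (adjusted p = 0.518). *Mafa*, *Slc30a8*, *Nkx6-1* and *G6pc2* did not exceed 0.436 CPM in any library. The islet list summed to 23.2 to 30.6 CPM in Model and 31.4 to 43.4 CPM in Ctrl, of which *Sst* gave 6.92 of 30.6 CPM in Model 1, 11.4 of 23.2 CPM in Model 2, 20.1 of 29.3 CPM in Model 3 and 27.4 to 39.8 CPM in Ctrl.

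Of the 7 other hormone genes, 4 passed the filter and 2 were called lower in Model than in Ctrl (16.2% of all genes tested). *Sst*, the gene of somatostatin from D cells, measured 39.8, 39.4 and 27.4 CPM in Ctrl, 40.2, 40.3 and 44.9 CPM in Ctrl_Swim, 6.92, 11.4 and 20.1 CPM in Model, and 32.0, 22.2 and 16.9 CPM in Model_Swim. All 3 Model mice lay below all Ctrl mice, and *Sst* fell by 1.47 on the log2 scale (SE 0.33, adjusted p = 0.00776). *Tac1*, the gene of substance P, which enterochromaffin cells and enteric neurons make, fell by 0.45 (SE 0.16, adjusted p = 0.0494), and lost its call when any of 10 of the 12 libraries was left out (adjusted p of up to 0.146). *Gip* had no count in any library. Of 14 fate factors, which set the lineage, 0 were called between Model and Ctrl by edgeR, where 32.7% of all genes tested were called. An unadjusted p under 0.05 was found for 3, *Hhex*, *Isl1* and *Nkx2-2* (45.2% of all genes tested), and DESeq2 called 1, *Isl1* (5548 over all genes). *Neurog3* measured 0.880 to 1.66 CPM in Ctrl and 1.09 to 1.14 CPM in Model. *Isl1*, a factor of mature endocrine cells, measured 1.64 to 2.37 CPM in Ctrl and 5.15, 6.81 and 1.67 CPM in Model, and was called in the average over both settings (log2 difference 0.93, SE 0.31, adjusted p = 0.0404), a call lost when any of 9 of the 12 libraries was left out (adjusted p of up to 0.102). *Hhex*, the most abundant of the list, was at 3.11 to 3.92 CPM in Ctrl and 4.77 to 7.29 CPM in Model (adjusted p = 0.0823).

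Of 10 nutrient and metabolite sensors tested, 2 were called between Model and Ctrl, where 32.7% of all genes tested were called. *Ffar4*, a receptor for long-chain fatty acids, measured 7.25 to 9.35 CPM in Ctrl, 10.6 to 12 CPM in Ctrl_Swim, 17.3 to 20.2 CPM in Model and 16.8 to 22.6 CPM in Model_Swim, and every mouse that received AOM/DSS lay above every mouse that did not. It rose by 1.16 on the log2 scale in Model (SE 0.14, adjusted p = 0.000512). *Slc5a1*, the sodium-glucose cotransporter, measured 182 to 215 CPM in Ctrl and 111 to 138 CPM in Model and fell by 0.71 (SE 0.09, adjusted p = 0.000612). Absorptive cells also express *Slc5a1*, and macrophages *Ffar4*. Of 11 hormone receptors and serotonin-clearance genes tested, 3 were called (32.7% of all genes tested). *Maoa*, which degrades serotonin, measured 1103 to 1116 CPM in Ctrl and 411, 573 and 733 CPM in Model, and fell by 0.96 (SE 0.17, adjusted p = 0.00291). *Htr4*, a serotonin receptor, measured 26.8 to 33.3 CPM in Ctrl and 14.4 to 24.8 CPM in Model, and fell by 0.66 (SE 0.17, adjusted p = 0.0121), or with an adjusted p of 0.0629 without Ctrl 2. *Cckar*, a cholecystokinin receptor, measured 1.16 to 2.67 CPM in Ctrl and 25.8, 3.54 and 19.5 CPM in Model 1, 2 and 3, and was called higher (log2 difference 3.07, SE 0.64, adjusted p = 0.00522). *Cckar* is also a gene of pancreatic acinar cells, and its 2 high libraries were those with the acinar RNA. *Rxfp4*, the receptor of INSL5, was at no more than 0.545 CPM in any library and did not pass the filter.

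**Figure D4:**
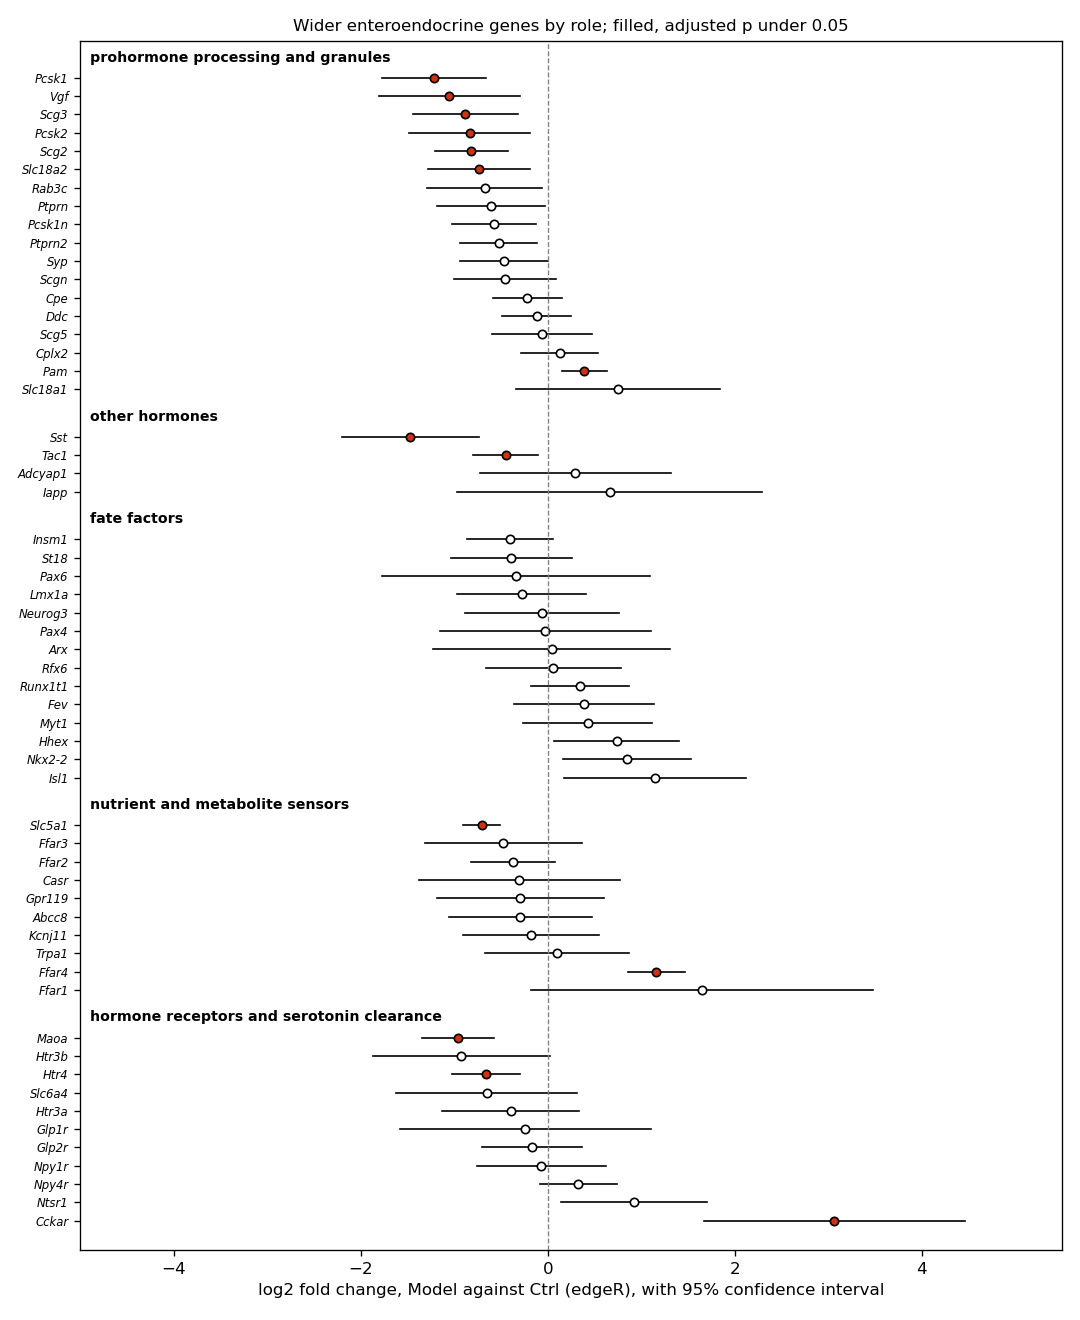
Log2 fold change of Model against Ctrl (x axis) with its 95% interval for the 57 genes tested of the wider set (rows), by list, filled where the adjusted p over all genes tested was under 0.05. Of the genes for processing and granules 6 are filled to the left and 1, *Pam*, to the right, and *Cckar* has the largest increase.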

How the data were processed

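Bulk RNA-seq of colorectal tissue was analysed from 12 libraries (TruSeq Stranded mRNA kit, Illumina sequencing), and the labels name another RNA extraction kit than the study's methods. Reads had been trimmed (Trimmomatic) and mapped by the authors with HISAT2 on the GRCm38.p6 build, and whole-number counts per gene were deposited from HTSeq-count, for which no strand setting was found in the sources used here. The deposited FPKM values were computed by the authors with Cufflinks, so that they divide by transcript length and serve only for levels between genes and as an alternative. The annotation release was not given in the sources used here.

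Counts were fitted with edgeR 4.0.16 (R 4.3.3), with TMM scaling, filterByExpr at a minimum count of 10, and 1 quasi-likelihood fit of the 4 groups with 8 residual degrees of freedom. Contrasts were Model against Ctrl, Model_Swim against Model, Ctrl_Swim against Ctrl, Model_Swim against Ctrl_Swim, the average effect of AOM/DSS and its interaction with swimming. P-values were two-sided and adjusted by Benjamini-Hochberg over the 15484 genes tested, and a gene was called at an adjusted p under 0.05. The study's own limit adds a fold change above 2 or below 0.5. The labels number the libraries within a group without tying a number to a litter or day, and p-values measure the spread between these libraries. No pair of libraries of a group agreed within sampling noise. Counting intervals are not given, since intervals of the fit include the spread between mice. Correlations over libraries were tested by two-sided permutation with 100000 resamples.

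Alternatives were DESeq2 1.42.0, its size factors in edgeR, no filter, only the groups compared, a replicate block, limma 3.58.1 on log2(FPKM + 1) or log2(FPKM + 0.1), each library left out, Model 1 and Model 3 left out together, and the mean log2 CPM of acinar genes as a covariate. The distal Hox covariate was added after seeing the data. The genes and lists were chosen with earlier results of these data known. The text names all 10 genes, and from each wider list at most 4 genes that passed in any contrast, by lowest adjusted p, and the most abundant. Further genes behind a small count or a lost call were picked with their values in view. Of lists of other cell types it names the 3 most abundant, and for islets every gene. Nearest genes are the 3 with the highest Pearson's r of log2 CPM, gene models left out. Scripts were tested on simulated data.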

Additional observations from a re-analysis of the deposited data

How the results depend on the processing

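The calls of these genes depended on single mice, in each of the 4 groups and not only in Model. The Model mice differed from one another in acinar and distal Hox RNA. The lowest of the 10 genes, *Cck* and *Neurod1*, had 24 to 80 counts per library. The labels do not say whether the replicate numbers pair the mice. Of 15 same-numbered pairs 4 had deviations that correlated over 0.1 (range -0.26 to 0.56), and 3 of 11 libraries correlated best with their own number. With so few libraries per group, these values cannot exclude a shared day or litter. Where a value changed sign or call, the cause was not tested.

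Between Model and Ctrl, where 1 of the 10 genes was called, DESeq2 called 2, the replicate block 2 (*Gcg* and *Sct*), a fit of only the 2 groups 0, the fit without Model 1 and Model 3 (in which the lone Model 2 is assumed to vary like the other groups) 6, the acinar covariate 0 and the distal Hox covariate, chosen after seeing the data, 5. Leaving out 1 library at a time gave 0 to 4, with 4 without Model 3, 0 without Ctrl 1 or Ctrl 2, and 1 without Model 2, which was *Gcg* in place of *Sct*. Calls over all genes moved as well. They were 5066 in the fit of the 4 groups, 5548 with DESeq2 and 4322 with the replicate block. The fit of only the 2 groups gave 3337, the acinar covariate 3214 and the Hox covariate 5781. There were 5620 without Model 3, 3503 without Ctrl 1 and 3160 without Ctrl 2. Between Model_Swim and Model, where 0 were called, the fit without Model 1 and Model 3 called 6 and the Hox covariate 4, and leaving out 1 library gave 0 to 6, with 6 without Model 3. Over all genes, the fit of the 4 groups called 11 between Model_Swim and Model, the Hox covariate 316 and the fit without Model 3 882. Between Model_Swim and Ctrl_Swim the fit of only the 2 groups called 1, and 1289 over all genes. In the average effect of AOM/DSS, where 2 were called, the fold-change limit left 1, the replicate block 1, limma without a filter 1, the fit without Model 1 and Model 3 gave 6, the acinar covariate 0 and the Hox covariate 5, and leaving out 1 library gave 0 to 5. The interaction, with 0 calls, had 5 without Model 1 and Model 3, 2 with the Hox covariate, and 0 to 4 when 1 library was left out.

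Of the wider set, 14 were called between Model and Ctrl, against 5 with the fold-change limit, 7 in the fit of only the 2 groups, 5 with the acinar covariate and 7 (without Ctrl 2) to 20 (without Model 3) when 1 library was left out. Over all genes the fold-change limit left 1150 of 5066. Between Model_Swim and Model, 0 were called, against 2 with DESeq2, 3 without Model 1 and Model 3, 2 with the Hox covariate and 0 to 8 when 1 library was left out. Between Ctrl_Swim and Ctrl, 0 were called, against 1 with DESeq2, 1 in the fit of only the 2 groups, 2 without Model 1 and Model 3, 1 with the Hox covariate and 0 to 1 when 1 library was left out. Between Model_Swim and Ctrl_Swim, 3 were called, against 0 with the fold-change limit, 6 with DESeq2, 11 in the fit of only the 2 groups, 0 with the replicate block, 13 without Model 1 and Model 3, 8 with the Hox covariate and 0 (without Model_Swim 3) to 9 (without Model 3) when 1 library was left out. Over all genes, Model_Swim against Ctrl_Swim gave 802 calls, 155 with the fold-change limit and 1562 with DESeq2. It gave 1289 in the fit of only the 2 groups, 40 with the replicate block and 170 without Model_Swim 3. In the average effect of AOM/DSS, 18 were called, against 2 with the fold-change limit and 11 with the acinar covariate. Over all genes that average gave 5175, 665 and 4526, with 4379 for the replicate block and 5852 for the Hox covariate. The interaction, with 0 calls, had 3 with DESeq2, 3 without Model 1 and Model 3, and 0 to 4 when 1 library was left out.

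The log2 differences that changed sign were those of genes that did not pass. With limma on log2(FPKM + 1), with or without the filter, that of *Insl5* between Model and Ctrl was -0.12 (-0.14 with a pseudocount of 0.1), that of *Neurod1* between Model_Swim and Model 0.0012 (0.049), those of *Pyy*, *Insl5* and *Cck* between Ctrl_Swim and Ctrl 0.11, 0.028 and 0.062 (0.11, 0.028 and 0.086), that of *Pyy* in the average effect of AOM/DSS -0.0047 (-0.0057) and the interaction of *Gcg* -0.038 (-0.035). With the replicate block, the difference was -0.0053 for *Tph1* between Model and Ctrl, 0.018 for *Neurod1* between Model_Swim and Model, -0.0079, 0.058 and -0.020 for *Gcg*, *Insl5* and *Nts* between Ctrl_Swim and Ctrl, 0.032, 0.058 and 0.093 for *Chgb*, *Neurod1* and *Nts* between Model_Swim and Ctrl_Swim, and -0.016 for *Pyy* in the average. Without Model 1 and Model 3 it was -0.15 for *Tph1* between Model and Ctrl, -0.0044 for *Gcg* between Model_Swim and Model, 0.21 for *Insl5* in the average and -0.23 for the interaction of *Gcg*. With the acinar covariate these 4 were -0.13, -0.27, 0.019 and -0.34, and *Sct* between Ctrl_Swim and Ctrl was 0.059 and *Nts* between Model_Swim and Ctrl_Swim 0.082. With the Hox covariate *Tph1* between Model and Ctrl was -0.10, *Neurod1* between Model_Swim and Model 0.069 and in the average -0.063, and *Pyy* between Ctrl_Swim and Ctrl 0.0067, which was 0.0011 with no filter on low counts.

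Leaving out 1 library at a time gave, between Model and Ctrl, ranges of -0.34 to 0.51 for *Pyy*, -0.70 to 0.57 for *Insl5*, -0.28 to 0.22 for *Tph1* and -0.17 to 0.57 for *Neurod1*. Between Model_Swim and Model the ranges were -0.63 to 0.21 for *Pyy*, -1.22 to 0.039 for *Insl5* and -0.39 to 0.37 for *Neurod1*. Between Ctrl_Swim and Ctrl they were -0.049 to 0.073 for *Pyy*, -0.33 to 0.14 for *Insl5*, -0.43 to 0.035 for *Sct* and -0.13 to 0.14 for *Cck*. Between Model_Swim and Ctrl_Swim they were -0.21 to 0.11 for *Neurod1* and -0.18 to 0.038 for *Nts*. In the average they were -0.23 to 0.20 for *Pyy*, -0.041 to 0.20 for *Tph1* and -0.12 to 0.25 for *Neurod1*. For the interaction they were -0.19 to 0.24 for *Gcg*, -0.63 to 0.21 for *Pyy*, -1.15 to 0.11 for *Insl5*, -0.031 to 0.47 for *Tph1* and -0.64 to 0.11 for *Neurod1*.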
